A study of Mus musculus with 24 samples.

Results

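The angiopoietin and Tie receptor axis was followed through choroid RNA of wild type and Ceacam1-/- mice by the genes of 2 secreted ligands (Angpt1, Angpt2), 2 receptors (Tek, Tie1), the phosphatase Ptprb and 2 angiopoietin-like proteins (Angptl2, Angptl4). The 7 genes were chosen by symbol for their place in the pathway, with earlier results of these data known, and all 7 were found among the 56065 genes of the normalized count table. All 7 were above the minimum mean of 10 normalized counts at which a gene was tested. Of the 24 libraries, 4 came from wild type mice without laser, 4 from Ceacam1-/- mice without laser, 9 from wild type mice with laser and 7 from Ceacam1-/- mice with laser.

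Ceacam1-/- mice lack exons 1 and 2 of Ceacam1, a cell adhesion molecule of endothelial and immune cells, in every cell. They were kept on a C57BL/6J background with wild type littermates as controls, and adult mice of both sexes were used in the study. The labels do not give the sex, the age or the time between laser and sampling. Laser-treated eyes had received 6 spots of 150 mW, 200 µm and 100 ms, a procedure that breaks the membrane under the retinal pigment epithelium and lets choroidal vessels grow inwards. The tissue held more than choroid: in the methods of the study, the pigment epithelium, choroid and sclera formed 1 complex. The labels do not say that each library came from a separate mouse, so p-values measure the spread between these libraries. The sum over all genes in a library ranged from 23704346 to 35094410 normalized counts, which are estimated reads divided by factors for library size and transcript length.

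ANGPT1, released by cells around vessels, binds and activates TEK (also called TIE2), a receptor tyrosine kinase of endothelial cells, and keeps vessels quiet and tight. ANGPT2 is stored and released by endothelial cells and competes for the same receptor, acting as a weak or context-dependent agonist, and it rises where vessels are remodelled. TIE1 binds no angiopoietin by itself and modulates TEK, while PTPRB (VE-PTP) removes phosphate from TEK and from junctional proteins. ANGPTL2 and ANGPTL4 share the fibrinogen-like domain of the angiopoietins but do not bind TEK. ANGPTL4 inhibits lipoprotein lipase and is known as a target of PPAR and hypoxia signalling, and ANGPTL2 is an inflammatory protein of stromal cells. In the eye, blockade of ANGPT2 together with VEGF is used against neovascular macular degeneration.

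In GRCm39, Tek lies on chr4:94627291-94763224 on the plus strand and Tie1 on chr4:118328385-118347261 on the minus strand, each with 23 exons in its canonical transcript. Angpt1 lies on chr15:42288058-42540417 and Angpt2 on chr8:18739202-18791603, both on the minus strand with 9 exons. Ptprb lies on chr10:116111428-116225440 with 32 exons and Angptl2 on chr2:33105946-33138252 with 5 exons, both on the plus strand. Angptl4 lies on chr17:33992724-34000804 on the minus strand with 7 exons. The values count reads over whole genes. Angpt2 lies within Mcph1 on the opposite strand, and annotated exons of Mcph1 cover 70.7% of the exonic bases of Angpt2. Whether reads were assigned by strand is not given in the sources used here, so reads of the pair may not have been told apart. Mcph1 had a mean of 191 normalized counts over the 24 libraries. For Angpt1 the share of exonic bases that lie under an antisense gene was 11.3%, for Tie1 4.76% and for Ptprb 1.15%. Exons of another gene were not found on the exons of Tek, Angptl2 or Angptl4.

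The regions before the starts of the 2 receptor genes are shown because Tek and Tie1 varied together across libraries and because the gene most like Tek in its pattern was the endothelial transcription factor Ets1 (both described further on). RefSeq promoter entries matched 3 of the 7 genes, Tek, Tie1 and Angptl2. The 250 bases before the start are given in GRCm38.p6, 5′ to 3′ on the strand of the gene, with every GGAA or TTCC, the core letters bound by ETS factors, in capitals.
Tek, chr4:94739039-94739288, plus strand: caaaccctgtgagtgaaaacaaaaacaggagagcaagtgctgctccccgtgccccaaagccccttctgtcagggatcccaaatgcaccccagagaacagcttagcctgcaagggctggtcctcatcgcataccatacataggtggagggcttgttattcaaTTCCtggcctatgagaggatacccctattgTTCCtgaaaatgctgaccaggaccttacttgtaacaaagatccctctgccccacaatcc
Tie1, chr4:118489850-118490099, minus strand: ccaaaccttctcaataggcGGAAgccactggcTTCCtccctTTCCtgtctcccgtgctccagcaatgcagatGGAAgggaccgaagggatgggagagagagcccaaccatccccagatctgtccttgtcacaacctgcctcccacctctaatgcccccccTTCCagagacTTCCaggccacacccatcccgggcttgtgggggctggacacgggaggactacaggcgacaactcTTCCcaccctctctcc
GGAA on either strand occurred 2 times in the Tek region and 7 times in the Tie1 region. It is a short motif that 93.4% of the 32851 promoters of the same length held at least once, with a median of 3 matches, and it was looked at after longer motifs had given none. The ETS motif CCGGAAG, which contains the core, was in neither region, nor in that of Angptl2, and in 6.91% of all promoters. The forkhead motif GTAAACA (3.17% of promoters) and the hypoxia core ACGTG (16.6%) were also in none of the 3 regions, on both strands. A match or its lack describes the letters of these windows and no binding.

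Ceacam1 itself was lower in most libraries labelled Ceacam1-/-. Without laser it had 957.6, 5027, 1242 and 4596 normalized counts in the wild type libraries 21, 22, 26 and 27, against 405, 504.6, 507.9 and 1171 in the Ceacam1-/- libraries 23, 24, 25 and 28. With laser it ranged from 773.5 to 8367 (median 996.3, n = 9) in wild type and from 67.79 to 905.1 (median 335.1, n = 7) in Ceacam1-/- libraries. The ranges overlapped in both pairs, and the values also count exons that the deletion leaves in place.

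Before the members, 5 libraries have to be named because they stood apart. The mean log2 value of 8 photoreceptor markers (among them Gnat1, Pde6b and Sag) was 16.38, 15.58 and 16.47 in laser-treated Ceacam1-/- libraries 14, 15 and 18, 15.45 in wild type library 21 and 15.54 in Ceacam1-/- library 23, both without laser. In the other libraries it was 14.39 or lower, and none of the markers was at 0 throughout any group. Gnat1, the rod transducin subunit, had a mean of 104000 normalized counts in Ceacam1-/- laser libraries and 17810 without libraries 14, 15 and 18. These 3 libraries had the 3 lowest means of the endothelial, pericyte, fibroblast and pigment epithelium lists within their group. For endothelial markers these were 9.48, 10.51 and 9.87, against 11.23 to 11.74 in the other 4. The tests were therefore repeated without these libraries, a choice made after the values had been seen. Fewer vascular cells, less RNA per vascular cell and a larger share of RNA from photoreceptors cannot be told apart in bulk RNA.

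**Figure D1:**
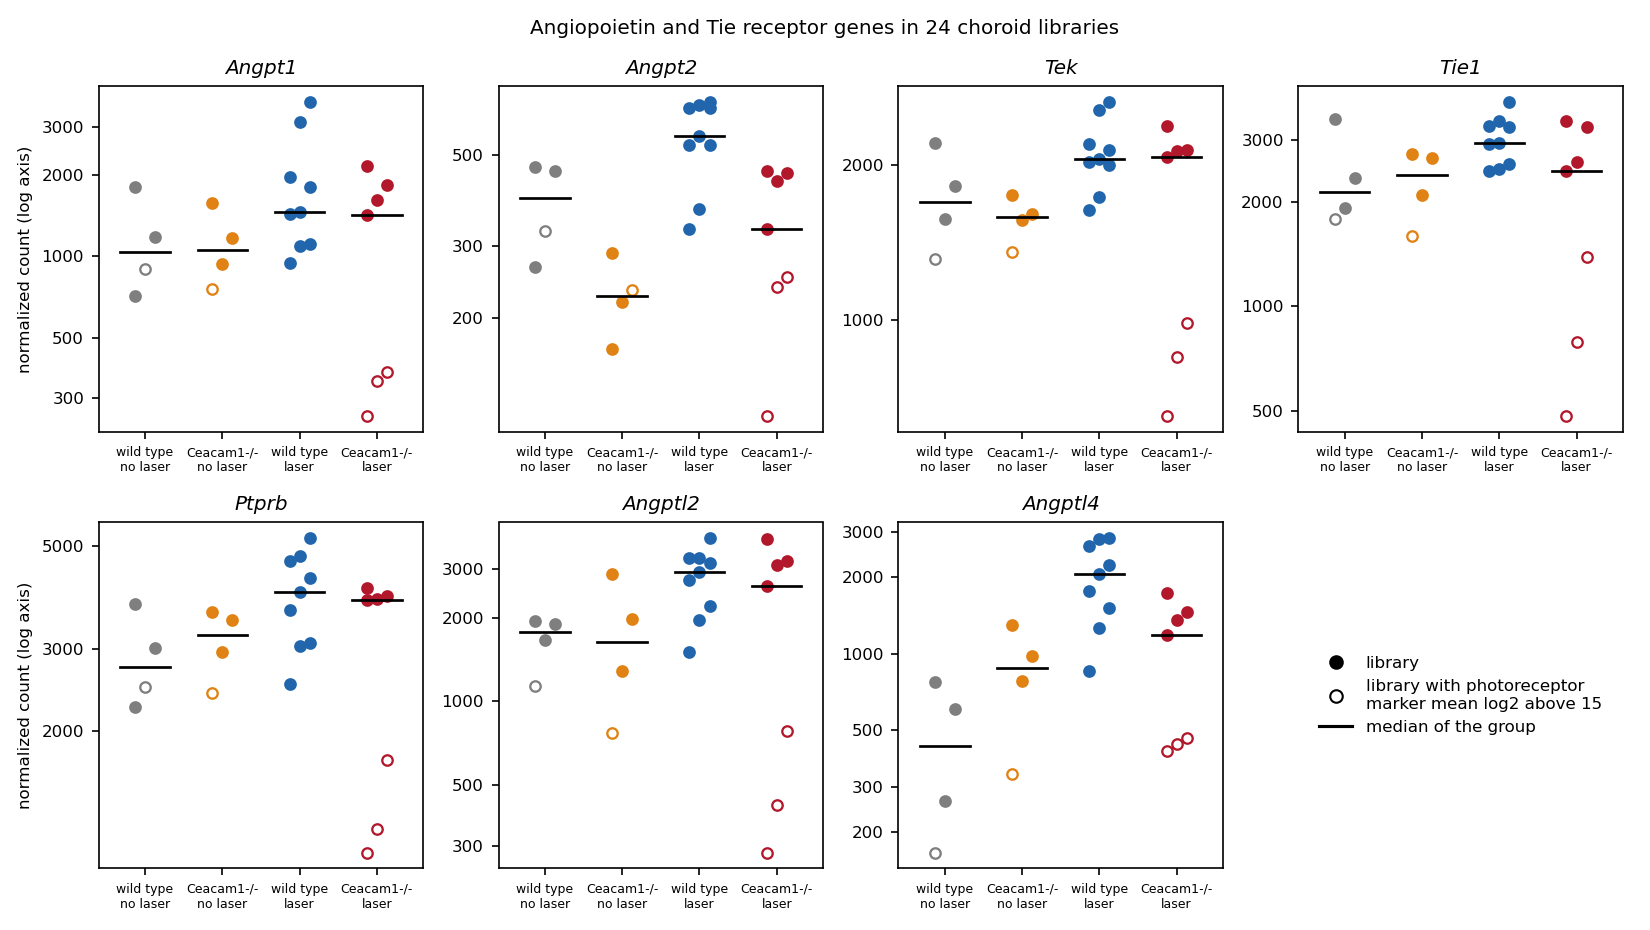
Normalized counts (log axis) of the 7 genes in each of 24 choroid libraries by group, with black lines at group medians and open circles for the 5 libraries whose photoreceptor marker mean exceeded 15 on the log2 scale. Angptl4 in wild type libraries with laser (855.3 to 2841) lies above all wild type libraries without laser (165.4 to 770.6), and the 3 open circles among Ceacam1-/- laser libraries are the lowest of their group for each gene.

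Levels between genes were compared per kb of canonical transcript (from 3308 bases for Angptl4 to 11911 bases for Ptprb). In wild type libraries without laser Tie1 was the highest at 580 ± 187 normalized counts per kb (SD, n = 4), followed by Angptl2 at 416 ± 93.3, Tek at 349 ± 76.6, Angpt1 at 263 ± 109, Ptprb at 241 ± 55.6, Angptl4 at 136 ± 85.9 and Angpt2 at 81.4 ± 21.2. The ranges of all neighbours in this order overlapped. Within a library the order held more often: Tie1 exceeded Angptl2, Angptl2 exceeded Tek and Tek exceeded Angpt1 in 4 of 4 libraries, while Angpt1 and Ptprb stood in this order in only 2 of 4. With the union of all annotated exons as length for every gene, the order in the same libraries was Tie1 (475 per kb), Tek (288), Angptl2 (219), Ptprb (200), Angpt1 (160), Angptl4 (100) and Angpt2 (79.2). Angptl2 and Tek, and Angpt1 and Ptprb, thus changed places with the length used. Tie1 was the highest and Angpt2 the lowest in all 4 groups with this length. The mean of both receptors was above that of Angpt2 in every group. Angpt2 was the lowest in all 4 groups, and its range lay below that of the next gene, Angpt1, in Ceacam1-/- libraries without laser and of Ptprb in wild type libraries with laser.

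**Figure D2:**
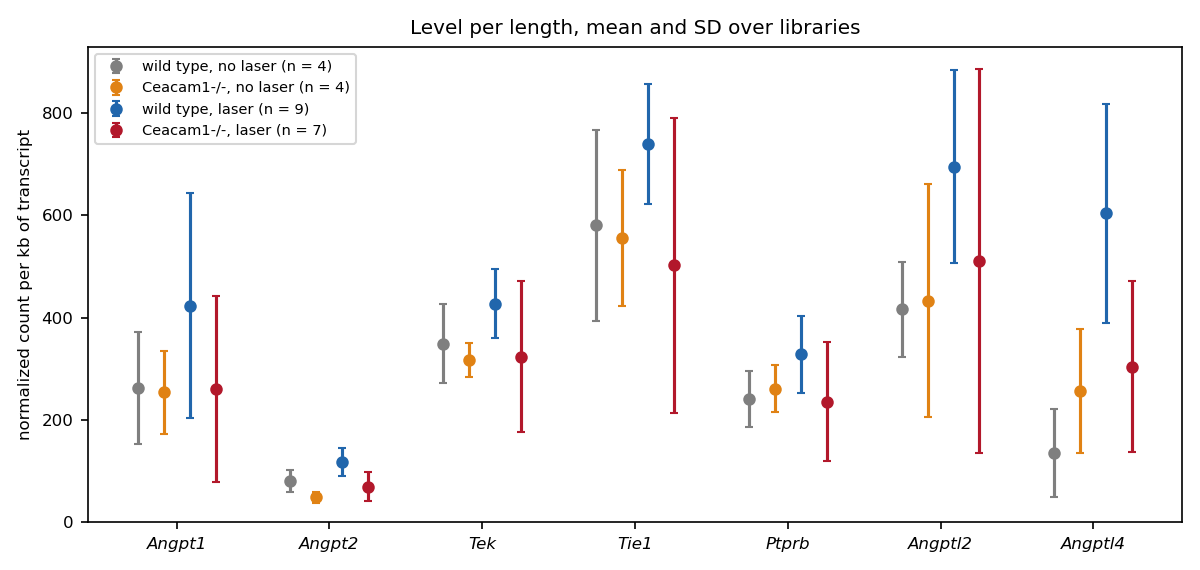
Normalized count per kb of canonical transcript (linear axis) of each gene by group, as mean and SD over libraries (n = 4, 4, 9 and 7). Angpt2 is the lowest in all groups (48.7 to 118 per kb), and Angptl4 stands at 136 in wild type libraries without laser and 604 in wild type libraries with laser.

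In wild type libraries with laser Angptl4 stood next below Tie1 and Angptl2, at 604 ± 214 per kb (n = 9), and exceeded Tek, at 427 ± 67.5, in 7 of 9 libraries. With the union of exons as length it stood above Angptl2, at 444 ± 157 against 365 ± 98.6 per kb. In Ceacam1-/- libraries Angptl4 was at 256 ± 121 per kb without (n = 4) and 304 ± 167 with laser (n = 7). The ratio of Angpt2 to Angpt1 in a library, on the log2 scale, had medians of -1.43 in wild type and -2.24 in Ceacam1-/- libraries without laser, and of -1.37 and -1.81 with laser. The ranges of this ratio overlapped between all groups.

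The comparison of laser with no laser in wild type mice asks which members move when choroidal neovascularization is induced. Angptl4 rose 4.94-fold and was the only one of the 7 to pass the test across all genes. The ligands, receptors and Ptprb had estimates above 0 that did not pass. Called genes made up 5.28% of the 19950 tested (844 higher, 209 lower), and 1 of 7 members was called. All 7 estimates were above 0, with a median log2 fold change of 0.53, while 42.1% of all genes were above 0 and their median was -0.10. The estimate of Tie1 turned to -0.06 (SE 0.15, adjusted p = 0.884) with the endothelial score as a covariate, and the other 6 were above 0 under every alternative computed.

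Angptl4 was at 165.4, 604.1, 770.6 and 263.3 normalized counts in wild type libraries 21, 22, 26 and 27 without laser. With laser it ranged from 855.3 to 2841, with a median of 2047 (n = 9). The groups did not overlap, which held with higher values after laser for 4.5% of all genes tested. The log2 fold change was 2.31 (SE 0.46, 95% interval 1.36 to 3.25, limma adjusted p = 0.00328), and the two-sided exact permutation test over 715 splits gave p = 0.0014, the smallest it can give. Without the 5 photoreceptor-rich libraries the log2 fold change was 1.91 (SE 0.34, adjusted p = 0.00114), where 8.39% of genes were called. With the photoreceptor, endothelial or muscle marker mean as a covariate it was 1.92, 1.88 and 2.63.

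Among the ligands, Angpt1 had 897.6, 1178, 1804 and 710.9 normalized counts in libraries 21, 22, 26 and 27, and 946.4 to 3715 with laser (median 1453, n = 9). Libraries 13 and 16, at 3119 and 3715, lay above the other 7 laser libraries, and the groups overlapped (log2 fold change 0.62, SE 0.50, adjusted p = 0.497). Angpt2 had 326.6, 457.7, 467.2 and 266.6 without laser and 330.3 to 674.4 with laser (median 555.5). Of the 9 laser libraries, 7 exceeded every library without laser, but libraries 13 and 19, at 330.3 and 369.3, did not. The log2 fold change of 0.53 (SE 0.29) did not pass (adjusted p = 0.315), and the exact permutation p, not adjusted over genes, was 0.0448.

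The receptors overlapped between the groups as well. Tek had 1314, 1819, 2203 and 1570 normalized counts in libraries 21, 22, 26 and 27 and 1632 to 2650 with laser (median 2054). Tie1 had 1777, 2344, 3464 and 1912 without and 2456 to 3876 with laser (median 2942). Library 26 without laser lay within the laser range for both receptors, and the other 3 lay below every laser library for Tie1. The log2 fold changes of Tek and Tie1 were 0.30 (SE 0.27, adjusted p = 0.549) and 0.39 (SE 0.37, adjusted p = 0.574). Ptprb had 2487, 3010, 3746 and 2251 without laser and 2525 to 5205 with laser (median 3991), a log2 fold change of 0.44 (SE 0.31, adjusted p = 0.444). Angptl2 had 1138, 1948, 1909 and 1661 without laser and 1504 to 3881 with laser (median 2927). Its log2 fold change of 0.72 (SE 0.54, adjusted p = 0.468) had an exact permutation p of 0.021, not adjusted over genes. Without the 5 photoreceptor-rich libraries these 6 estimates were 0.53 for Angpt1, 0.47 for Angpt2, 0.18 for Tek, 0.26 for Tie1, 0.38 for Ptprb and 0.54 for Angptl2, at adjusted p of 0.199 to 0.498. Leaving out only libraries 14, 15 and 18, which are not in this contrast, left the 6 estimates as they were, and the adjusted p were then 0.102 to 0.225. Under limma with array weights, which gives less weight to libraries far from the fit, 5 of the 7 were called, namely Angpt1 (1.09), Angpt2 (0.78), Tie1 (0.52), Ptprb (0.66) and Angptl4 (2.76), but that fit called 32.6% of all genes.

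**Figure D3:**
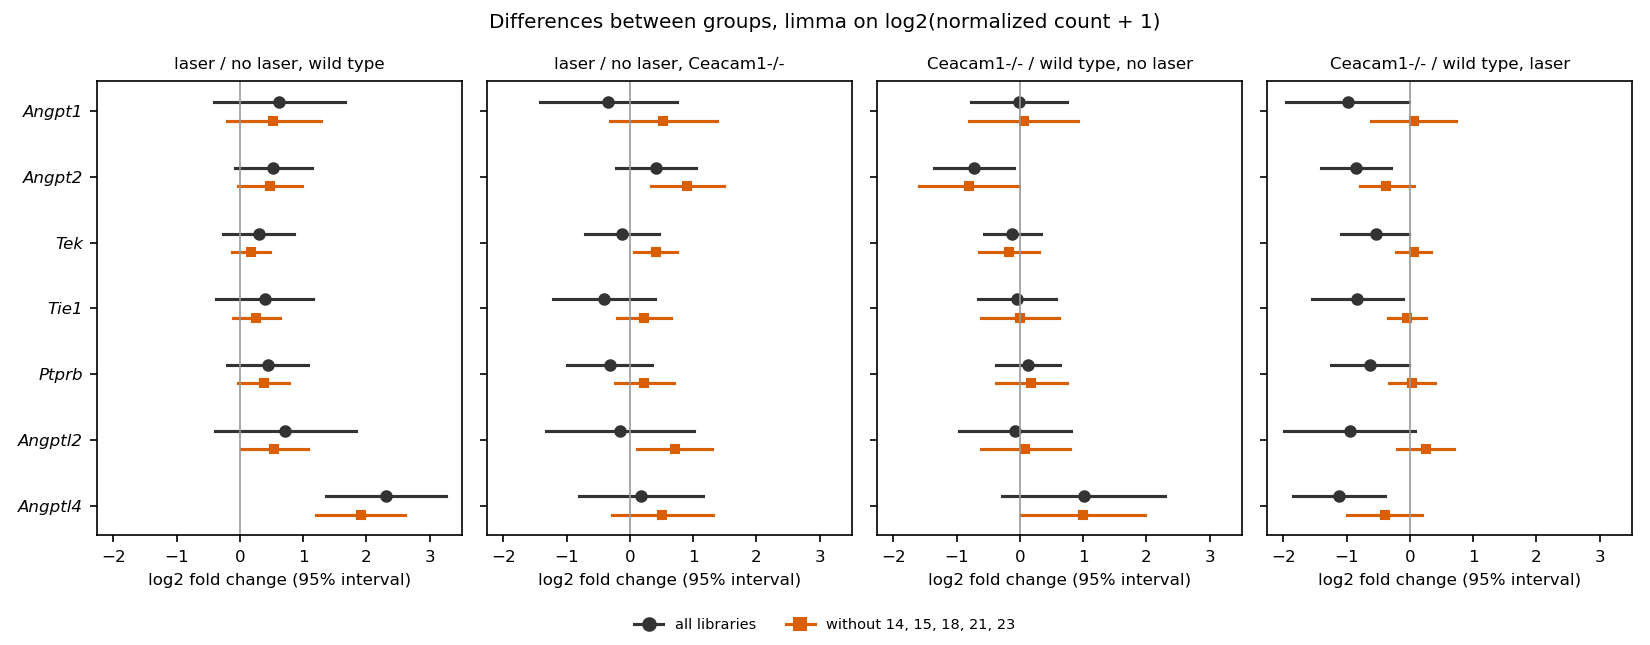
Log2 fold changes with 95% intervals (x axis) of the 7 genes in 4 comparisons between groups, from all libraries (dark circles) and without the 5 photoreceptor-rich libraries (orange squares). The interval of Angptl4 in wild type mice lies above 0 in both fits (2.31 and 1.91), while 5 of the laser estimates in Ceacam1-/- mice lie below 0 with all libraries and above 0 without the 5.

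Markers of other cells moved in the same comparison. Of 9 myeloid markers, 8 rose and the ninth was also above 0 (median log2 fold change 2.26), led by Ptprc (CD45), Lyz2 and Cd68, and their summed value went from 9790 to 20362 without laser to 45236 to 121241 with laser, most of it Lyz2. Of 7 fibroblast markers, Col3a1 and Lum rose and the other 5 were above 0 (median 1.24). None of the 12 endothelial markers was called, with 11 above 0 and a median of 0.43, and Cdh5 (VE-cadherin) had the lowest p (0.76, adjusted p = 0.217). None of the 9 pericyte (median -0.11), 7 pigment epithelium (0.02), 8 photoreceptor (-1.38) or 8 skeletal muscle markers (-0.79) was called. The lowest p in these lists were those of Pdgfrb (0.81, adjusted p = 0.266), Best1 (0.83, adjusted p = 0.272), Pde6b (-1.79, adjusted p = 0.452) and Ckm (-1.20, adjusted p = 0.351). Of 5 platelet markers 3 could be tested, and Pf4, which macrophages also make, rose (2.15, adjusted p = 0.00192). Among adipocyte markers, 4 of 5 could be tested and all 4 were below 0, none called (median -1.10; lowest p for Retn, -1.41, adjusted p = 0.191). In the fit without libraries 14, 15 and 18, 9 myeloid and 5 fibroblast markers, Pdgfrb, Pf4 and Ppbp rose, and without the 5 libraries 8 myeloid and 5 fibroblast markers and Pf4. The part of the myeloid and fibroblast markers in the difference of Angptl4 was not tested.

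Genes of the wider pathway moved in part. Of 19 adaptors, kinases, effectors and angiopoietin-binding integrins of TEK signalling, Itga5 (integrin α5, the fibronectin receptor subunit; log2 fold change 1.5, adjusted p = 0.00855) and Dok2 (an adaptor that binds activated TEK, also abundant in blood cells; 1.73, adjusted p = 0.0115) rose, and Grb14 (an adaptor that also restrains insulin receptor signalling; -1.90, adjusted p = 0.00321) fell. The other 16, among them Foxo1, Akt1 and Nos3, did not pass, and the median of the list was 0.16. Of 13 genes around ANGPTL4 and ANGPTL2, 3 rose. These were Plin2, which coats lipid droplets (1.67, adjusted p = 0.00232), and Pirb (2.08, adjusted p = 0.00109) and Lilrb4a (2.37, adjusted p = 0.00223), immune inhibitory receptors of the family that binds ANGPTL2. The lipases and PPAR factors of that list did not pass. Of 10 tip cell and sprouting genes, 4 rose, led by Plaur, the urokinase receptor (2.95, adjusted p = 6.27e-05), Kcne3 (2.50) and Unc5b (1.24), with a median of 1.06 for the list. None of the 6 tested relatives (among them Angpt4, Angptl7 and Svep1, a ligand of TIE1) was called, and Angptl8 was too low to be tested. The lowest p among them was that of Angpt4 (1.80, adjusted p = 0.118), which went from 27.4 ± 16.5 to 92.3 ± 33.7 normalized counts. The number of calls in these lists depended on the libraries in the fit. When libraries 14, 15 and 18 were left out, 10.8% of all genes were called and 2 relatives rose, Angpt4 (adjusted p = 0.00274) and Angptl7 (1.98, adjusted p = 0.0373). In that fit 7 TEK signalling genes rose and Grb14 fell, the added ones being the integrins Itgb3, Itgb1 and Itgav and the adaptors Shc1 and Grb2, and 7 sprouting genes and the same 3 genes around ANGPTL4 and ANGPTL2 rose. Without the 5 libraries 1 relative (Angpt4, 1.52, adjusted p = 0.0179), 5 TEK signalling genes and 7 sprouting genes rose, and Grb14 fell. The same 3 genes around ANGPTL4 and ANGPTL2 rose in that fit too.

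In Ceacam1-/- mice laser moved none of the 7 genes past the test when all libraries were used. Genes past the threshold made up 3.72% of the 19950 tested (413 higher, 329 lower). Estimates were above 0 for Angpt2 (0.41) and Angptl4 (0.18) and below 0 for the other 5 (-0.41 to -0.13), and 51.2% of all genes were above 0. Adjusted p ranged from 0.473 for Angpt2 to 0.897 for Angptl2. In each gene the laser libraries fell into 4 high and 3 low ones, and the low ones were always libraries 14, 15 and 18. The high ones were libraries 4, 5, 6 and 7. In both genotypes, libraries with laser have numbers between 1 and 19 and those without laser between 21 and 28. Whether the numbers follow the order of collection or handling is not given, and a part of that order in the values was not tested.

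Angptl4 had 337.2, 778.4, 1291 and 981.3 normalized counts in Ceacam1-/- libraries 23, 24, 25 and 28 without laser. With laser it had 1187, 1357, 1726 and 1454 in libraries 4, 5, 6 and 7 and 414.2, 441.2 and 466.2 in libraries 14, 15 and 18. The groups overlapped with and without the low libraries, since library 25 lay above library 4. The log2 fold change was 0.18 (SE 0.48, adjusted p = 0.863, exact permutation p = 0.782 over 330 splits) and became 0.90 (SE 0.45, adjusted p = 0.236) without libraries 14, 15 and 18. Without all 5 photoreceptor-rich libraries it was 0.51 (SE 0.38, adjusted p = 0.403).

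Angpt2 had 233.8, 218.6, 167.7 and 288.3 normalized counts in libraries 23, 24, 25 and 28. With laser it had 452.9, 457.7, 432.3 and 330.2 in libraries 4, 5, 6 and 7 and 115.2, 237.6 and 251.5 in libraries 14, 15 and 18. The first 4 laser libraries lay above every library without laser, and the last 3 did not. This split was made after the values had been seen, and the share of all genes with it was not computed. With all libraries the log2 fold change was 0.41 (SE 0.31, adjusted p = 0.473). Without libraries 14, 15 and 18 it was 0.89 (SE 0.25, adjusted p = 0.0255), and 2 of 7 members were called in that fit, Angpt2 and Angptl2 (1.04, SE 0.33, adjusted p = 0.0456), where 10.2% of all genes were. Without all 5 libraries, Angpt2 stayed called (0.91, SE 0.28, adjusted p = 0.0305) and Angptl2 did not (0.71, SE 0.29, adjusted p = 0.104), at 14.9% of all genes. Under array weights Angpt2 was the only member called (0.76, SE 0.26, adjusted p = 0.0438), at 17.8% of all genes.

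Tek had 1357, 1751, 1609 and 1561 normalized counts in libraries 23, 24, 25 and 28 and 2070, 2137, 2381 and 2125 in laser libraries 4, 5, 6 and 7, against 652.8, 990.6 and 848.1 in libraries 14, 15 and 18. The 4 high laser libraries lay above and the 3 low ones below every library without laser. The share of all genes divided in this way was not computed, so the division describes these values only. The log2 fold change of Tek moved from -0.13 (SE 0.28) to 0.48 (SE 0.16, adjusted p = 0.0700) without the low ones. Tie1 had 1587, 2095, 2746 and 2676 without laser, between 2454 and 3420 in the 4 high laser libraries and 482.1, 1384 and 787 in the low ones. Ptprb had 2415, 3615, 2963 and 3465 without laser, 3836 to 4056 in the 4 high laser libraries and 1091 to 1729 in the 3 low ones. Angpt1 and Angptl2 had the same division, with 257 to 373.3 against 1416 to 2146 for Angpt1 and 284.8 to 783.1 against 2619 to 3866 for Angptl2. Without libraries 14, 15 and 18 all 7 estimates were above 0 (0.35 to 1.04), with a median of 0.69 against -0.04 for all genes. These 3 were the lowest laser libraries for each gene, so leaving them out had to raise every estimate. Photoreceptor-rich library 23 without laser stayed in that fit. When all 5 photoreceptor-rich libraries were left out, the 7 estimates were above 0 as well (median 0.51).

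**Figure D4:**
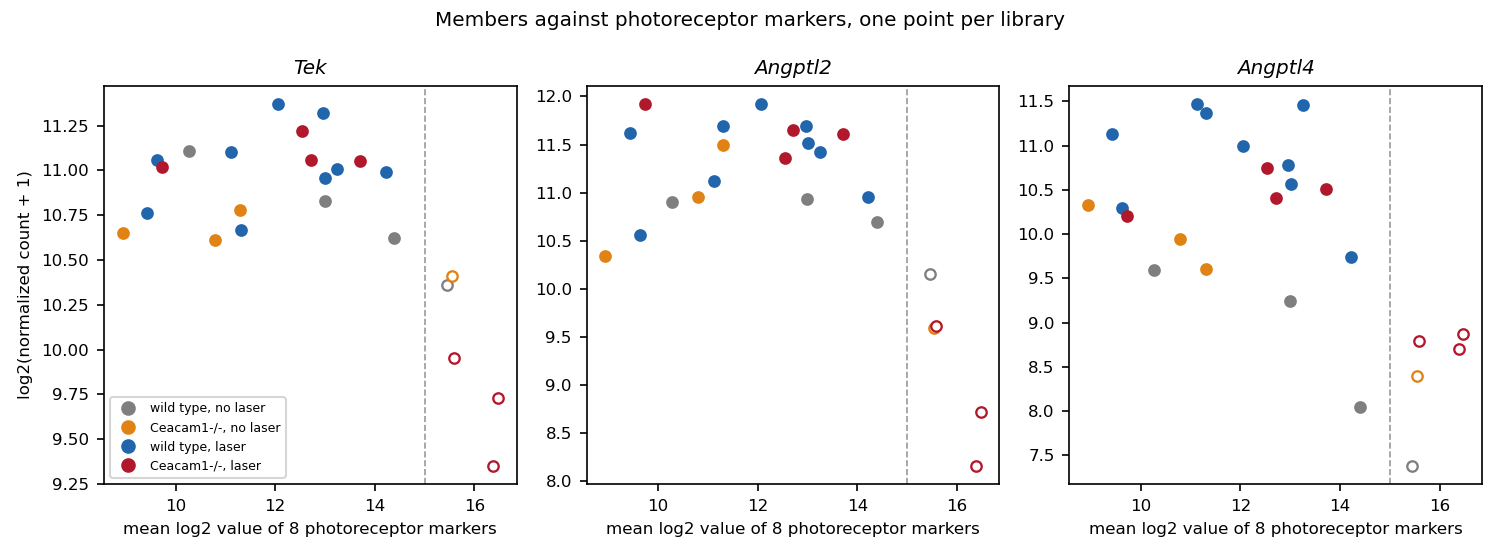
Log2(normalized count + 1) of Tek, Angptl2 and Angptl4 (y axes) against the mean log2 value of 8 photoreceptor markers (x axis), one point per library coloured by group, with open circles right of the dashed line at 15. Libraries 14, 15 and 18, at 15.58 to 16.47 on the x axis, are the lowest of the 24 for Tek.

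Some marker lists in Ceacam1-/- mice moved with the same libraries. Among the 7 laser libraries, the mean log2 values of the endothelial, pericyte, myeloid, fibroblast and pigment epithelium lists were lower, and that of the photoreceptor list higher, in libraries 14, 15 and 18 than in each of the other 4. The muscle and adipocyte lists did not divide in this way, with a muscle mean of 13.48 in library 15 against 12.61 in library 5, and an adipocyte mean of 4.0 in library 18 against 2.33 in library 7. The 8 photoreceptor markers were all above 0 (median log2 fold change 2.36, none called), the 7 pigment epithelium markers all below (-1.56, none called) and the 8 muscle markers all below (-2.02, none called). Without libraries 14, 15 and 18 the medians of these 3 lists were 0.62, -0.51 and -1.44. Without the 5 photoreceptor-rich libraries those of the photoreceptor and pigment epithelium lists were 2.0 and -0.63. Of 9 myeloid markers 6 rose (median 1.56), led by Lyz2, Adgre1 and Ptprc, and of 7 fibroblast markers Lum rose (median 1.23). The 12 endothelial markers had a median of -0.42 with all libraries and 0.36 without libraries 14, 15 and 18, with none called in either fit. The lowest p in lists with no call were those of Robo4 (-0.69, adjusted p = 0.318), Higd1b (-0.96, adjusted p = 0.145), Ttr (-1.71, adjusted p = 0.083), Pdc (2.67, adjusted p = 0.242), Actn3 (-1.98, adjusted p = 0.0584) and Cidec (-2.21, adjusted p = 0.282). Pf4 rose (1.77, adjusted p = 0.0200), 4 adipocyte markers were below 0 with none called, and all 9 pericyte markers were below 0 with none called (median -0.62). Of the pericyte markers, 6 were above and 3 below 0 without libraries 14, 15 and 18 (median 0.04). Without the 5 photoreceptor-rich libraries 2 were above and 7 below 0 (-0.17), and no pericyte marker was called in either fit. When libraries 14, 15 and 18 were left out, 8 myeloid and all 7 fibroblast markers, Pf4 and Pmel of the pigment epithelium list rose. Without the 5 photoreceptor-rich libraries all 8 muscle markers fell (median -2.27) and 8 myeloid and 6 of 7 fibroblast markers rose. The part of any of these lists in the values of the members was not tested.

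Several relatives and partners moved in these mice, where none of the members passed with all libraries. Angptl7, a secreted relative known from the corneal stroma, the trabecular meshwork and the sclera, rose from 609.9 ± 536 (n = 4) to 12820 ± 14200 normalized counts (n = 7; log2 fold change 3.63, SE 0.94, adjusted p = 0.0332). The mean of laser libraries 4, 5, 6 and 7 alone was 21280. Grb14 fell (-2.43, adjusted p = 0.00115), from 1672 ± 619 to 306.3 ± 117, and Dok2 rose (1.64, adjusted p = 0.0317), as both did in wild type mice. Pirb rose (1.96, adjusted p = 0.00629). Pdk4, a PPAR target that limits glucose oxidation, fell (-2.70, SE 0.65, adjusted p = 0.0229), from 2474 ± 1570 to 323.4 ± 134. Of the 10 sprouting genes Plaur rose (1.94, adjusted p = 0.0116). These 6 genes also passed in the same direction without libraries 14, 15 and 18, Pdk4 with the highest adjusted p (-2.22, adjusted p = 0.0484) and Angptl7 at 5.32 (SE 0.70). In that fit Angptl1 (1.95, adjusted p = 0.00751) and Angpt4 (1.68, adjusted p = 0.0161) rose as well, 7 TEK signalling genes rose and Grb14 fell, Lilrb4a and Plin2 rose beside Pirb, and Kcne3 rose beside Plaur. Without the 5 libraries, where 14.9% of all genes were called, 3 relatives, 6 TEK signalling genes and 4 sprouting genes rose. Pirb (2.35), Lilrb4a (1.93) and Plin2 (1.28) rose there as well. Grb14, Pdk4 (-2.94, adjusted p = 0.00492) and Ppara (-1.63, adjusted p = 0.0459) fell in that fit.

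The laser effects of the 2 genotypes were compared by their interaction. No gene passed (0 of 19950, 0%), with 1241 at an unadjusted p under 0.05, so no difference of laser effects between genotypes was shown for any member. The estimate farthest from 0 among the 7 was that of Angptl4 at -2.13 (SE 0.66, unadjusted p = 0.00375, limma adjusted p = 0.640), which was the laser effect of 2.31 in wild type set against 0.18 in Ceacam1-/- mice. Without libraries 14, 15 and 18 it was -1.41 (SE 0.60, unadjusted p = 0.0286, adjusted p = 0.999), and over 37 alternatives it ranged from -2.52 to -1.14 with adjusted p of 0.192 or more. The other 6 estimates lay between -0.97 and -0.12, and between -0.09 and 0.36 without these libraries. No list gene was called in these fits, and those of lowest p in their lists (among them Itgav, Unc5b, Csf1r, Ttr and Pdc) had adjusted p of 0.64 or more with all libraries.

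Without laser no member passed the test between genotypes. None of 20057 genes was called (0%), with 307 at an unadjusted p under 0.05 and 1 called by limma without a trend. The paper reports a small set of differentially expressed genes in its comparison of choroid without laser, from DESeq2 with sex as a covariate. The targeted gene Ceacam1 was thus not called here either, so the lack of a call does not show the lack of a difference. Angpt2 was at 326.6, 457.7, 467.2 and 266.6 in wild type and 233.8, 218.6, 167.7 and 288.3 in Ceacam1-/- libraries, with 3 of 4 Ceacam1-/- libraries below all wild type libraries. The log2 fold change was -0.73 (SE 0.28, adjusted p = 0.999), and the exact permutation p over 70 splits was 0.0571, where 0.0286 is the smallest possible. Angptl4 was at 165.4 to 770.6 in wild type and 337.2 to 1291 in Ceacam1-/- libraries, a log2 fold change of 1.01 (SE 0.57, adjusted p = 0.999, exact permutation p = 0.171). The 2 wild type libraries with the lowest Angptl4 values, 21 and 27, were those with the highest photoreceptor means of their group (15.45 and 14.39). For Angpt1, Tek, Tie1, Ptprb and Angptl2 the estimates lay between -0.12 and 0.13, and their 95% intervals reached from -0.96 to 0.81 across the 5 genes. Without libraries 21 and 23 the estimates were -0.81 for Angpt2 (SE 0.34, unadjusted p = 0.046, adjusted p = 0.909) and 1.00 for Angptl4 (SE 0.42, unadjusted p = 0.0457, adjusted p = 0.909). No list gene was called with all libraries or without these 2, and those of lowest p (among them Nck1, Lpl, Unc5b and Lyz2) had an adjusted p of 0.999 with all libraries.

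With laser all 7 members were estimated lower in Ceacam1-/- mice, and none passed. Only 4 of 19757 genes (0.0202%) were called, while 4479 had an unadjusted p under 0.05. Log2 fold changes ran from -0.54 for Tek to -1.12 for Angptl4 (median -0.85, with 51.2% of all genes above 0), at adjusted p of 0.13 to 0.248. The lowest unadjusted p were those of Angptl4 (0.0047) and Angpt2 (0.00509), with exact permutation p over 11440 splits of 0.0105 and 0.00472. Without libraries 14, 15 and 18 the estimates were 0.06 for Angpt1, 0.06 for Tek, -0.04 for Tie1, 0.04 for Ptprb and 0.25 for Angptl2. Those of Angpt2 and Angptl4 shrank to -0.37 (SE 0.20, adjusted p = 0.675) and -0.40 (SE 0.28, adjusted p = 0.749) and, like that of Tie1, were below 0 under every alternative computed. The laser and genotype comparisons share libraries and are not independent of each other. In the genotype comparison with laser and all libraries, 12 of 12 endothelial, 9 of 9 pericyte and 7 of 7 pigment epithelium markers were below 0, as were 9 of 9 myeloid, 8 of 8 muscle and 7 of 7 fibroblast markers and 10 of 10 sprouting genes. All 8 photoreceptor markers were above 0. None of these was called, and the lowest p in their lists were those of Pecam1 (-0.50), Abcc9 (-0.82), Rpe65 (-1.75), Csf1r (-1.02), Myh4 (-1.89), Fbn1 (-0.88), Dll4 (-0.72) and Pdc (2.21), at adjusted p of 0.112 to 0.228. Itgav of TEK signalling (-0.67, adjusted p = 0.131), Pdk4 (-1.97, adjusted p = 0.108), Pf4 (-0.44, adjusted p = 0.351) and Plin1 (-1.03, adjusted p = 0.359) did not pass either. Without the 3 libraries, 10 of 12 endothelial, 6 of 9 myeloid and 6 of 7 fibroblast markers and 7 of 10 sprouting genes were above 0, while 6 of 9 pericyte, 6 of 7 pigment epithelium and 8 of 8 muscle markers were below 0, with none called.

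The members were then compared with each other across libraries, after removal of group means. With all 24 libraries each of the 21 pairs was positively correlated, with Pearson r from 0.52 for Angpt1 and Angpt2 to 0.96 for Tek and Ptprb (median 0.74), and r of all 21 passed adjustment over the pairs in a permutation test within groups. The weakest pair, Angpt1 and Angpt2, had a Spearman rank correlation of 0.45 that did not pass (adjusted permutation p = 0.06). The Spearman rank correlation of Tek and Ptprb was 0.95 and its adjusted permutation p 0.00021. For this pair the adjusted p of r was 0.0001, and r was 0.93 without the 2 libraries farthest from the median of Tek, 14 and 18. These values rested in large part on the 5 photoreceptor-rich libraries, which lay apart from the rest. In the other 19 the median r over the 21 pairs was 0.19, with a range from -0.31 to 0.87, and in the 9 wild type laser libraries alone it was 0.05.

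**Figure D5:**
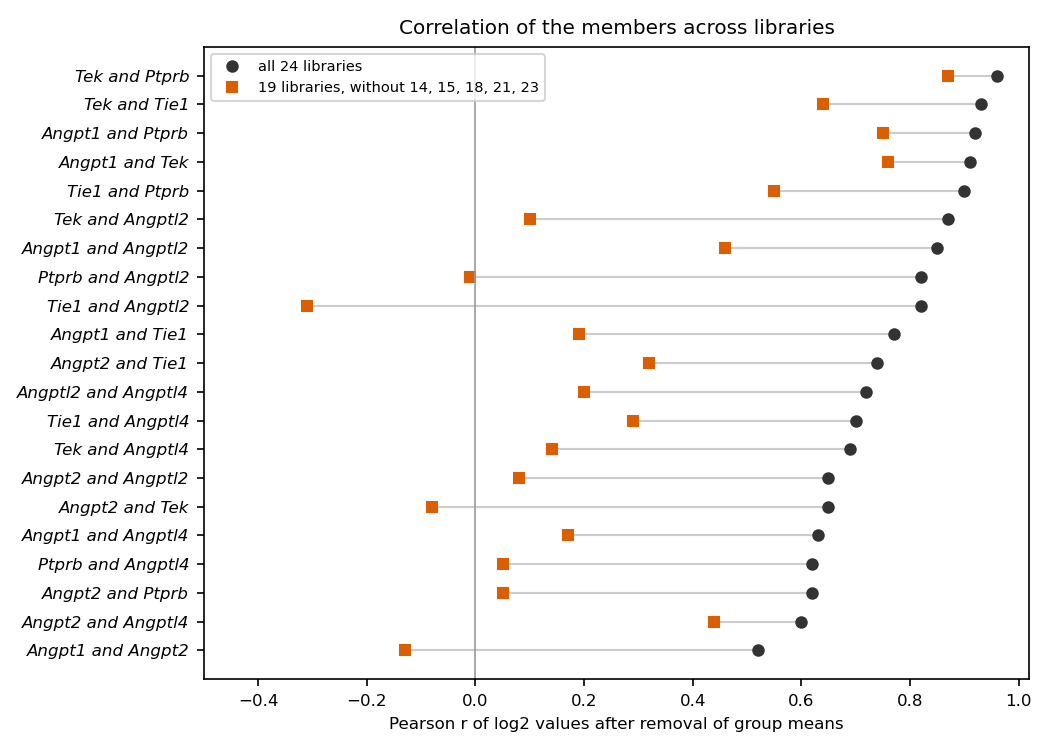
Pearson r of group-centred log2 values for the 21 pairs of members (x axis), with dark circles for 24 libraries and orange squares for the 19 without the photoreceptor-rich ones. The pairs among Tek, Ptprb, Tie1 and Angpt1 other than Angpt1 and Tie1 keep r of 0.55 to 0.87, and every pair with Angpt2, Angptl2 or Angptl4 lies at or below 0.46 in the 19.

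In those 19 libraries Tek still followed Ptprb (0.87), Angpt1 (0.76) and Tie1 (0.64), and Angpt1 followed Ptprb (0.75). Angpt2 followed neither Tek (-0.08) nor Angpt1 (-0.13). Against marker lists in the 19 libraries, Tie1 had its highest r with endothelial markers (0.78), Angptl2 with fibroblast markers (0.78), Angpt1 with fibroblast markers (0.56) and Angpt2 with endothelial markers (0.62). Ptprb had its highest r with pericyte markers (0.49) and 0.15 with endothelial markers, and Angptl4 had no r above 0.35, its value with myeloid markers. Tek had 0.10 with the endothelial list, 0.39 with the pericyte list and 0.51 with the pigment epithelium list there, against 0.81, 0.88 and 0.83 in all 24. These values are descriptions of libraries that share their tissue composition and normalization.

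The genes with patterns most like those of the members, among 15730 protein-coding genes over 24 group-centred libraries, were named by the same measure. The r in the 19 libraries is given after that in all 24, and was lower for each of these genes. For Tek they were Ets1 (r = 0.978, then 0.93), a transcription factor of endothelial cells and lymphocytes, Enpep (0.957, then 0.81) and Fmnl3 (0.957, then 0.89). For Tie1 they were Eng, the endothelial TGF-β coreceptor endoglin (0.89 in the 19 libraries), Lzts2 (0.973, then 0.86) and Exoc3l2 (0.972, then 0.92). For Ptprb they were Ephb4, the venous receptor of ephrin-B2 (0.961, then 0.88), Cped1 (0.959, then 0.85) and She (0.954, then 0.86). Angpt1 had Creb3l2 (0.957, then 0.89), Pkd2 (0.954, then 0.86) and Parva (0.945, then 0.92). Angpt2 had lower values, with P2rx1 (0.886, then 0.76), Ddah2 (0.872, then 0.79) and Nupr1 (0.872, then 0.81). Angptl2 stood nearest to Myadm (0.972, then 0.85), Kdelr3 (0.956, then 0.73) and the collagen gene Col3a1 (0.951, then 0.87). Angptl4 stood nearest to Nrros (0.896, then 0.71) and to Col4a2 (0.893, then 0.81) and Lamc1 (0.879, then 0.63), which code for basement membrane proteins.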

How the data were processed

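Choroid RNA-seq libraries (SMART-Seq) of 24 samples were grouped by the genotype and laser labels. The deposited signal values are normalized counts, which the authors made by pseudo-alignment to GRCm39 with Salmon 1.10.3 and import into DESeq2 1.44.0, dividing estimated reads by factors for library size and average transcript length. They are not whole reads, so no count model was run. Positions came from a later annotation that matched 99.1% of identifiers.

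Differences were tested with limma 3.58.1 (R 4.3.3, trended variance) on log2 of the value plus 1, for genes with a mean of at least 10 over the libraries of a fit, with Benjamini-Hochberg adjustment over all genes tested and a threshold of 0.05. Laser effects and their interaction came from 1 model of 24 libraries, and genotype effects from the 8 libraries without and the 16 with laser. Fold changes are on the log2(value + 1) scale. For a single member the two-sided exact permutation test over libraries was added, and for pairs of members 100000 permutations within groups. The study's covariate, sex, is not in the labels. The method was run on simulated data in which each gene varied independently. These data held no shift of tissue content shared by many genes, so they do not test the method under such shifts. The members and gene lists were chosen with earlier results of these data known. All members were named, and of each list the 3 called genes of lowest p in a comparison, or the 1 of lowest p where none was called. For the interaction and the genotypes without laser only some of these are named, and some list genes are not reported here by name. Other list genes were named after their values were seen. Alternatives were pseudocounts of 0.5 and 10, no filter, quantile and upper-quartile scaling, limma without trend, array weights, other libraries in the fit, scores of endothelial, photoreceptor, muscle and Y-linked genes as covariates, exon union as length, and each library left out. Leaving out libraries 14, 15 and 18, or also 21 and 23, was chosen after seeing the data. Python 3.11.15 with scipy 1.17.1 served for permutation tests and matplotlib 3.10.9 for plots.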

Additional observations from a re-analysis of the deposited data

How the results depend on the processing

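The rise of Angptl4 with laser in wild type mice passed the threshold under every alternative run, at log2 fold changes of 1.88 to 2.76 and adjusted p of 5.35e-07 to 0.0342. Of the values of single members over all alternatives, 891 kept direction and call and 75 changed direction. The threshold was newly passed 8 times, of which 7 kept the direction and 1, Angptl2 in Ceacam1-/- mice without libraries 14, 15 and 18, had changed it. No paired analysis was possible because the labels do not say which libraries share a mouse, a litter or an eye. The cause of the changes was not tested.

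Genes called with laser in wild type mice numbered 1053. They were 6505 with array weights (5 members), 2274 with other libraries in the fit, 3493 with the muscle score, 2128 without libraries 14, 15 and 18 and 1645 without the 5 libraries, and 479 to 1162 with 1 library left out, lowest without library 21 (479) or 27 (554). In Ceacam1-/- mice 742 genes became 437 without a filter, 3551 with array weights (1 member), 38 with other libraries in the fit, 1620 with the endothelial and 455 with the muscle score, 2005 without libraries 14, 15 and 18 (2 members) and 2923 without the 5 (1 member). With 1 library left out the count was 148 to 2488 (148 without library 25, 255 without 24, 466 without 5, 2488 without 23), and no member was called. Between genotypes without laser 0 became 1 without a trend, with array weights and without library 24 (0 to 1 over libraries). With laser 4 became 297 with array weights, 9 with other libraries in the fit, 1 with the muscle score and 2 without libraries 14, 15 and 18, and 4 to 61 with 1 library left out (7 without library 4, 25 without 17, 61 without 19). The level of Angptl2 per kb was 219 with the union of exons.

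Directions changed as follows, in log2 fold changes. For laser in wild type mice, Tie1 was -0.06 with the endothelial score. For laser in Ceacam1-/- mice, array weights gave 0.10 for Angpt1, 0.25 for Tek, 0.24 for Tie1, 0.07 for Ptprb and 0.27 for Angptl2. The endothelial score gave 0.09 for Tek and 0.25 for Angptl2, and the photoreceptor score 0.11 for Angpt1, 0.15 for Tek, 0.03 for Tie1 and 0.42 for Angptl2. The muscle score gave 0.18 for Angpt1, 0.25 for Tek, 0.29 for Tie1, 0.08 for Ptprb and 0.84 for Angptl2. Without libraries 14, 15 and 18 the 5 genes were at 0.69, 0.48, 0.39, 0.35 and 1.04, and without the 5 libraries at 0.53, 0.41, 0.22, 0.23 and 0.71. With 1 library left out Tek ranged from -0.25 to 0.06, Angptl2 from -0.49 to 0.22 and Angptl4 from -0.21 to 0.43.

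For the interaction, the endothelial score gave 0.37 for Angpt2, 0.06 for Tek and 0.05 for Angptl2, the photoreceptor score 0.34, 0.02 and 0.07, and the muscle score 0.14 for Angpt2. Without libraries 14, 15 and 18 Angpt1 was 0.07, Angpt2 0.36, Tek 0.18, Tie1 0.00 and Angptl2 0.32, and without the 5 Angpt2 was 0.44, Tek 0.23 and Angptl2 0.16. Angpt2 ranged from -0.26 to 0.11 with 1 library left out. Between genotypes without laser, Angpt1 was 0.01 under quantile and upper-quartile scaling and with the muscle score. Array weights gave 0.64 for Angpt1, 0.04 for Tek, 0.11 for Tie1 and 0.40 for Angptl2, Ptprb was -0.01 with the endothelial and -0.02 with the photoreceptor score, and without libraries 21 and 23 Angpt1 was 0.06 and Angptl2 0.08. With 1 library left out Angpt1 ranged from -0.22 to 0.23, Angptl2 from -0.38 to 0.26, Tek from -0.24 to 0.01 and Tie1 from -0.17 to 0.16. Between genotypes with laser and without libraries 14, 15 and 18, Angpt1 was 0.06, Tek 0.06, Ptprb 0.04 and Angptl2 0.25. The files give no whole reads, so no interval for counting error could be set.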
